A study of Mus musculus with 2 samples.

Results

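The Mir17 to Mir92-1 cluster is a row of 6 miRNA hairpins (Mir17, Mir18, Mir19a, Mir20a, Mir19b-1 and Mir92-1) in the long noncoding transcript Mir17hg. Members were chosen by position, as the features of the small RNA-seq table that start in a short window of chromosome 14, a rule that uses no measured value. This rule found 6 of the 1638 miRNA features in the table. The samples were 1 library of wild-type mouse embryonic stem cells (mESCs) of the E14 line and 1 library of wild-type male germ cells of the C57Bl/6J strain collected at E15.5 of embryonic development. The sample labels give the cell type of the latter as Primordial germ cell, whereas the study calls them prospermatogonia, the name used here for these fetal male germ cells. The study describes naive E14 cells grown without feeders with LIF and inhibitors of MEK and GSK3, and germ cells from embryos that carry an Oct-4/GFP transgene active in the developing gonad. Its list of datasets names the stem cell library of small RNA only as mESC, without the word naive. With 1 library per cell type no difference has a replicate check, strain and cell type cannot be told apart, and all intervals are 95% intervals for counting error only.

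miRNAs are cut out of longer transcripts as hairpins by Drosha and DGCR8, and Dicer then trims each hairpin to a mature RNA of which the seed, bases 2 to 8, largely sets the target mRNAs. The hairpins of Mir17hg are cut from a common transcript, and the level of each mature RNA also depends on its processing and stability. The cluster, also called oncomiR-1, is driven by Myc, limits the proapoptotic gene Bim, and is abundant in embryonic stem cells and early germ cells. Mammals hold paralogous clusters, Mir106a to Mir363 on the X chromosome and Mir106b to Mir25 in an intron of Mcm7.

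The mature sequences of the arm usually found in the Argonaute complex are shown because they carry the families by which the results are ordered. They come from RefSeq (GRCm38.p6), run 5′ to 3′, and have the seed in capitals.
miR-17-5p of Mir17: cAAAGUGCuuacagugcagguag
miR-18a-5p of Mir18: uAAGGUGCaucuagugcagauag
miR-19a-3p of Mir19a: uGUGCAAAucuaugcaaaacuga
miR-20a-5p of Mir20a: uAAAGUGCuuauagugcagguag
miR-19b-3p of Mir19b-1: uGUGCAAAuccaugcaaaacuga
miR-92a-3p of Mir92-1: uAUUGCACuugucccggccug
The 6 hairpins thus held 4 seeds, with Mir17 and Mir20a sharing AAAGUGC and Mir19a and Mir19b-1 sharing GUGCAAA. With positions counted from 1 at the 5′ end, miR-20a-5p differs from miR-17-5p by C1U and C12U, and miR-19b-3p differs from miR-19a-3p by U11C alone. The table counts each hairpin as a whole, so that its arms could not be told apart.

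A pair of members have a mature sequence that also lies in a paralogous hairpin, and reads of such a sequence could come from either copy. The hairpins are shown with the longest shared stretch in capitals (RefSeq, GRCm38.p6, chr14:115044427-115044506 on the plus strand for Mir92-1, chrX:52741838-52741928 on the minus strand for Mir92-2, chr14:115044305-115044391 on the plus strand for Mir19b-1 and chrX:52741983-52742066 on the minus strand for Mir19b-2).
Mir92-1: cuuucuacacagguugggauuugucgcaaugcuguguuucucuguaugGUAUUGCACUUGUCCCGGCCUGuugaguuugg
Mir92-2: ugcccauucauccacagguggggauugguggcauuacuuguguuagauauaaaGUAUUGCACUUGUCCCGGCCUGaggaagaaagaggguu
Mir19b-1: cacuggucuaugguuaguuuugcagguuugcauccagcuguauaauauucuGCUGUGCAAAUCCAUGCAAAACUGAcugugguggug
Mir19b-2: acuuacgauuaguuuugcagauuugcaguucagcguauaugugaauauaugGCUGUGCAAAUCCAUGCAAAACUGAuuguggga
Mir92-1 and Mir92-2 share 22 nt, and Mir19b-1 and Mir19b-2 share 25 nt, in both cases with the whole mature sequence inside. How reads with several matches were counted is not given in the sources used here, so it is uncertain how their reads were divided. The other 4 hairpins share at most 17 nt with any other mouse hairpin of the RefSeq list, which is shorter than their mature sequences.

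Mir17hg lies on chromosome 14 from 115042879 to 115046727 (GRCm38, GENCODE vM21, plus strand), and all 6 hairpins lie in its exon 2, from 115043271 to 115046727. In transcript order Mir17 is at 115043671 to 115043754, Mir18 at 115043851 to 115043946 and Mir19a at 115044000 to 115044081. Mir20a follows at 115044157 to 115044263, Mir19b-1 at 115044305 to 115044391 and Mir92-1 at 115044427 to 115044506. The hairpins span 836 bases, are 80 to 107 bases long, and are separated in this order by 96, 53, 75, 41 and 35 bases.

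The deposited values corresponded to whole reads in both libraries, and a single read stood for 2.22 RPM, reads per 1000000 of the library, in mESCs and for 0.348 RPM in prospermatogonia. Taken as RPM these steps give library totals of 449643 and 2869578 reads, of which 110455 (24.6%) and 155237 (5.41%) were miRNA reads of the table. A count of 0 allows up to 3 reads, or 6.67 RPM for mESCs and 1.05 RPM for the deeper library of prospermatogonia. Of 12 markers of mESCs (Mir290 to Mir295, Mir302a to Mir302d and Mir367), 12 had more than 3 reads in mESCs and 6 in prospermatogonia, with 24.7% and 3.25% of miRNA reads, and Mir302b, Mir302c and Mir367 were at 0 in prospermatogonia. Among markers of other cells, 7 mesenchymal features held 0.482% of miRNA reads in prospermatogonia (3.31% in mESCs). The 5 of blood and endothelium held 0.106% (0.593% in mESCs). Mir202 of the gonadal soma went the other way, with 57 reads (0.0367%) in prospermatogonia and 0 in mESCs. Mir21 had 486 of the 748 mesenchymal reads in prospermatogonia and Mir214 had 2. Mir143 held the rest, and Mir21 and Mir143 were the 2 features of this list with more than 3 reads there. Mir142 had 124 and Mir126 had 40 of the 165 reads of the blood list. Mir199a-1, Mir199a-2, Mir199b and Mir145 of the mesenchymal list and Mir144 and Mir223 of the blood list were at 0 in prospermatogonia. Of these, Mir199a-1, Mir199a-2, Mir144 and Mir223 were at 0 in mESCs as well. Mature sequences of the Mir199 hairpins also lie in another hairpin, so their counts are uncertain. The part of other cells in the results below was not tested.

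Mir92-1, which gives miR-92a, was by far the highest hairpin of the cluster in both cell types, and its level as deposited was close to equal between them, whereas when the libraries were scaled to their miRNA reads in any of 3 ways it was higher in prospermatogonia. Mir92-1 had 5244 reads in mESCs and 29587 in prospermatogonia, or 11663 and 10311 RPM, and ranked 3 and 2 among the features of each library. Mir17, the first hairpin, had 324 and 492 reads, or 721 RPM in mESCs and 171 RPM in prospermatogonia. Mir20a, with the same seed, had 239 and 215 reads, or 532 RPM in mESCs and 74.9 RPM in prospermatogonia. These were the next hairpins of the cluster in level in both libraries, with Mir17 above Mir20a in each. Mir18 had 78 and 87 reads, or 173 RPM in mESCs and 30.3 RPM in prospermatogonia. Mir19a had 133 and 44 reads, or 296 RPM in mESCs and 15.3 RPM in prospermatogonia. Mir18 and Mir19a therefore stood in the reverse order in the 2 libraries, with intervals that did not overlap in either of them (139 to 216 RPM against 250 to 351 RPM in mESCs, 24.6 to 37.4 RPM against 11.4 to 20.6 RPM in prospermatogonia). Mir19b-1 had 1 read in mESCs and 18 in prospermatogonia, or 2.22 and 6.27 RPM, and was the only member at or under 3 reads in a library.

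**Figure D1:**
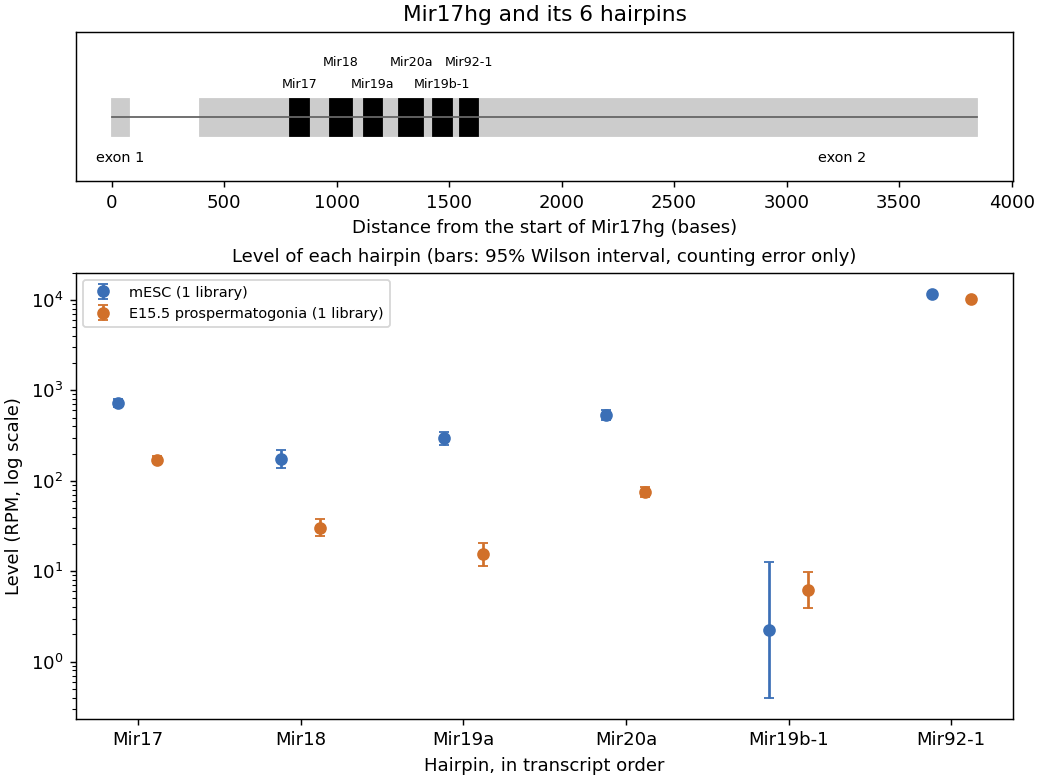
Upper panel, exons of Mir17hg (grey) and the 6 hairpins (black) by distance in bases from the start of Mir17hg; lower panel, level of each hairpin in RPM on a log scale in transcript order, 1 library per cell type, with bars for the 95% Wilson interval of its reads. Mir92-1, the last hairpin, sits at 11663 RPM in mESCs and 10311 RPM in prospermatogonia, whereas the other hairpins lie between 2.22 and 721 RPM.

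The hairpins differ in length, so their levels were also compared as reads per base of the hairpin. Mir92-1 had 65.6 reads per base in mESCs and 370 in prospermatogonia, against 3.86 and 5.86 for Mir17, 2.23 and 2.01 for Mir20a, and 0.813 and 0.906 for Mir18. Mir19a had 1.62 and 0.537, and Mir19b-1 had 0.0115 and 0.207 reads per base. The order of the 6 hairpins within each library was the same per base as by reads. It did not follow the order along the transcript, since Mir20a, which comes after Mir18 and Mir19a, was above both in each library. Mir19b-1 and Mir92-1, the lowest and the highest hairpin, are neighbours 35 bases apart. Both have a mature sequence that also lies in a paralogous hairpin, so their counts are uncertain.

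As a share of the cluster's reads, Mir92-1 held 87.1% (86.3% to 87.9%) in mESCs and 97.2% (97.0% to 97.4%) in prospermatogonia. Each other hairpin with more than 3 reads in both libraries held a smaller share in prospermatogonia. Mir17 held 5.38% (4.84% to 5.98%) in mESCs and 1.62% (1.48% to 1.76%) in prospermatogonia, and Mir20a held 3.97% (3.51% to 4.49%) and 0.706% (0.618% to 0.807%). Mir18 held 1.30% (1.04% to 1.61%) and 0.286% (0.232% to 0.352%), and Mir19a held 2.21% (1.87% to 2.61%) and 0.145% (0.108% to 0.194%). The intervals of the 2 libraries did not overlap for any of these 5 hairpins. These shares are parts of a whole, so the lower ones are tied to the higher share of Mir92-1 and are not separate results. How many of all features differ beyond counting error was not counted, but 90.6% of 203 differed at least 2-fold in level as deposited. For Mir19b-1 they overlapped, at 0.0166% (0.00293% to 0.0941%) in mESCs and 0.0591% (0.0374% to 0.0935%) in prospermatogonia.

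Among the 5 hairpins other than Mir92-1, which summed to 775 reads in mESCs and 856 in prospermatogonia, the make-up also differed. Mir17 held 41.8% (38.4% to 45.3%) of these reads in mESCs and 57.5% (54.1% to 60.7%) in prospermatogonia. Mir19a held 17.2% (14.7% to 19.98%) and 5.14% (3.85% to 6.83%), so that the share of Mir17 was higher and that of Mir19a lower in prospermatogonia beyond counting error. Mir20a held 30.8% (27.7% to 34.2%) and 25.1% (22.3% to 28.1%), and Mir18 held 10.1% (8.14% to 12.4%) and 10.2% (8.31% to 12.4%), with intervals that overlapped between the libraries for both. Mir19b-1 held 0.129% (0.0228% to 0.727%) and 2.10% (1.33% to 3.30%), a higher share in prospermatogonia without overlap, on 1 read in mESCs.

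**Figure D2:**
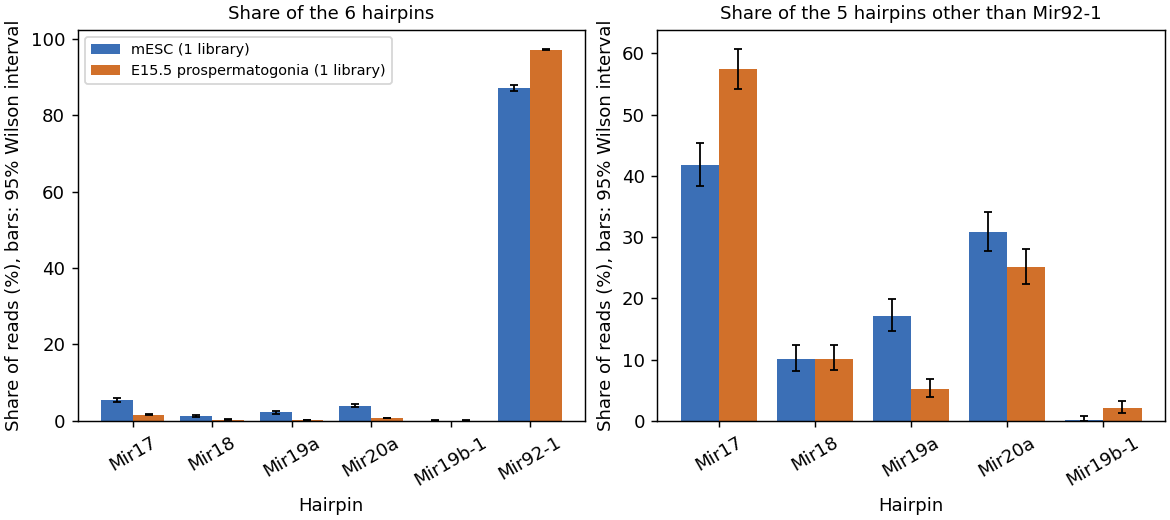
Share of reads in percent held by each hairpin in mESCs (blue) and E15.5 prospermatogonia (orange), left of all 6 hairpins and right of the 5 other than Mir92-1, with bars for 95% Wilson intervals. The share of Mir92-1 is 87.1% in mESCs and 97.2% in prospermatogonia, and among the others the share of Mir19a is 17.2% and 5.14%.

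The cluster as a whole held 6019 reads in mESCs and 30443 in prospermatogonia, which is 5.45% (5.32% to 5.58%) and 19.6% (19.4% to 19.8%) of all miRNA reads, 3.60-fold more in prospermatogonia. This rested on Mir92-1, which alone held 4.75% (4.62% to 4.87%) and 19.1% (18.9% to 19.3%) of miRNA reads. The other 5 hairpins together held 0.702% (0.654% to 0.753%) in mESCs and 0.551% (0.516% to 0.589%) in prospermatogonia, but this difference depended on Mir92-1 in the total. With Mir92-1 left out of the total they held 0.737% (0.687% to 0.790%) and 0.681% (0.637% to 0.728%), and the intervals overlapped. In these bulk libraries a lower level cannot be told apart from fewer cells that carry the miRNA, since cells and RNA per cell were not measured separately.

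Between the libraries as deposited, features that reached 10 RPM in either library were compared by the log2 ratio of prospermatogonia to mESCs with 1 RPM added to each level. Of 203 such features 80.8% were at least 2-fold lower and 9.85% at least 2-fold higher in prospermatogonia (90.6% in either direction), and the median log2 ratio was -2.52. Of the 5 hairpins of the cluster above this filter 4 were at least 2-fold lower and none higher, a share (80%) close to that of all features and thus no result about the cluster. Their log2 ratios were -2.06 (-2.27 to -1.87) for Mir17, -2.48 (-2.96 to -2.08) for Mir18, -4.18 (-4.76 to -3.78) for Mir19a and -2.81 (-3.09 to -2.56) for Mir20a. In linear form these hairpins were 4.20-fold, 5.72-fold, 19.3-fold and 7.09-fold higher in mESCs, but under the 3 other scalings Mir17 was higher in prospermatogonia (log2 ratio 0.11 to 0.30) and of these hairpins only Mir19a stayed at least 2-fold lower (-2.07 to -1.88). Mir92-1 was 1.13-fold (1.10 to 1.16) higher in mESCs with a log2 ratio of -0.18, and it too was higher in prospermatogonia under the 3 other scalings (2.01 to 2.19). Mir19b-1 lay below the filter, and its read ratio was 2.82-fold in favour of prospermatogonia with a counting interval of 0.479 to 16.6 that includes equal levels.

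Relative to the median of all features, which takes out most of the scaling, Mir17 (0.45), Mir18 (0.04) and Mir20a (-0.29) lay near it. With a pseudocount of 5 RPM Mir17 (-0.06) and Mir18 (-0.36) turned negative, and Mir20a lay further below (-0.77). With 1 RPM added, Mir19a lay 1.67 below the median on the log2 scale, below the lower quartile of all features, which was -3.68. Mir92-1 lay 2.34 above it, and 28 of the 203 features had a higher log2 ratio. The 5 members above the filter thus ranged over 4.01 on the log2 scale.

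**Figure D3:**
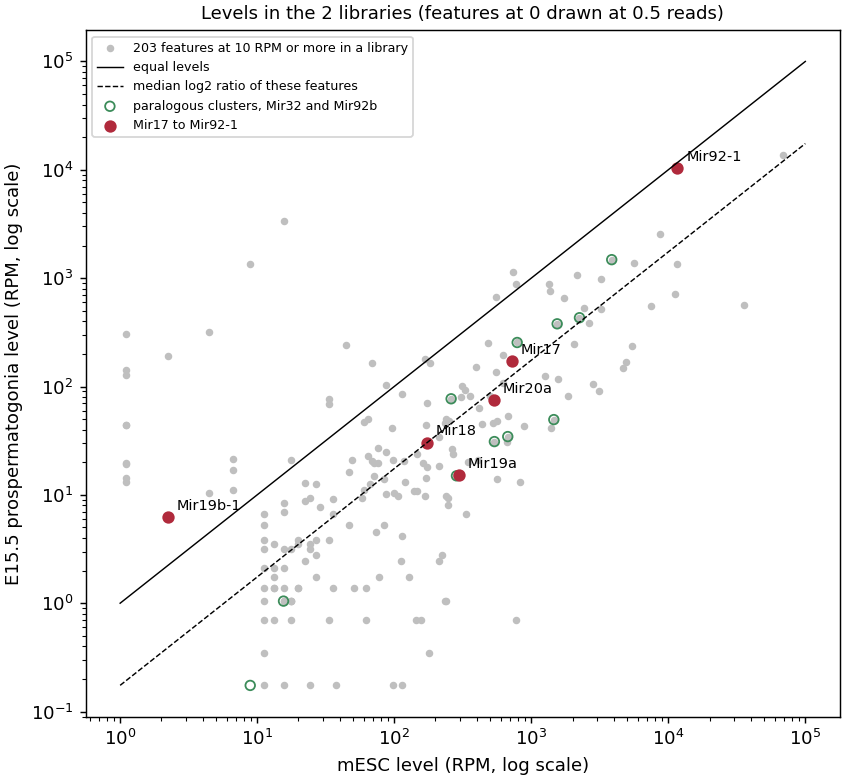
Level in E15.5 prospermatogonia against level in mESCs, both in RPM on log scales, for the 203 features that reached 10 RPM in either library (grey), the 6 hairpins of the cluster (red) and the paralogous hairpins (green circles); the solid line marks equal levels and the dashed line the median log2 ratio of -2.52. Mir92-1 lies near the line of equal levels, Mir17, Mir18 and Mir20a lie near the dashed line, and Mir19a lies below it.

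Ratios between hairpins of the same library need no scaling and were compared directly. Reads of Mir92-1 per read of the other 5 hairpins together were 6.77 in mESCs and 34.6 in prospermatogonia, a 5.11-fold difference (4.62 to 5.65). Taken singly, the ratio of Mir92-1 to Mir17 was 16.2 in mESCs and 60.1 in prospermatogonia, 3.72-fold apart (3.22 to 4.29). The ratio of Mir92-1 to the next 3 hairpins in level differed by 5.06-fold for Mir18 (3.72 to 6.88), 6.27-fold for Mir20a (5.20 to 7.56) and 17.1-fold for Mir19a (12.1 to 24.01). Mir92-1 was therefore higher relative to each of these 4 hairpins in prospermatogonia by more than counting error. Relative to Mir19b-1 it was lower, at 0.313-fold, with an interval (0.0418 to 2.35) that includes an equal ratio.

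Among the other hairpins, Mir19a was lower relative to each of its neighbours in prospermatogonia. The ratio of Mir17 to Mir19a was 2.44 in mESCs and 11.2 in prospermatogonia (4.59-fold, 3.18 to 6.64), that of Mir18 to Mir19a 0.586 and 1.98 (3.37-fold, 2.13 to 5.33), and that of Mir20a to Mir19a 1.80 and 4.89 (2.72-fold, 1.85 to 4.01). Mir17 and Mir20a, whose mature sequences differ at 2 positions, stood at 1.36 to 1 in mESCs and 2.29 to 1 in prospermatogonia (1.69-fold, 1.34 to 2.13). For Mir17 against Mir18 (1.36-fold, 0.973 to 1.91) and Mir20a against Mir18 (0.807-fold, 0.564 to 1.15) the intervals include an equal ratio in both libraries.

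The paralogous clusters hold hairpins with the same seeds, and their values show which of these features recur outside Mir17hg. Of 11 hairpins (the 9 of both clusters with Mir32 and Mir92b of the miR-92 seed) 10 were above the filter, and all 10 were at least 2-fold lower in prospermatogonia as deposited (median log2 ratio -2.70), whereas under the 3 other scalings 4 of them (Mir92-2, Mir106b, Mir25 and Mir92b) were higher and 5 at least 2-fold lower. Over all 203 features 80.8% were at least 2-fold lower as deposited, with a median of -2.52, and 36.5% to 39.9% under the other scalings. Within the miR-17 seed, Mir106a had 242 reads in mESCs and 89 in prospermatogonia (log2 ratio -4.07), Mir20b 303 and 99 (-4.25), Mir106b 117 and 221 (-1.74), and Mir93 1011 and 1238 (-2.38). Within the miR-18 seed, Mir18b had 128 and 43 reads (-4.16), and within the miR-19 seed Mir19b-2 had 4 and 0 reads. The X-linked copies were thus lower relative to the hairpins of Mir17hg in prospermatogonia, by 4.13-fold for Mir106a against Mir17 (3.12 to 5.47), 3.32-fold for Mir18b against Mir18 (2.09 to 5.27) and 2.75-fold for Mir20b against Mir20a (2.06 to 3.69). The mature sequences of these pairs differ by U10A for Mir106a, A18U and A20U for Mir18b, and U1C and U10C for Mir20b. Against the Mir106b to Mir25 cluster, the ratio of Mir17 to Mir106b differed by 0.804-fold (0.617 to 1.05), which includes no difference, and that of Mir20a to Mir93 by 0.735-fold (0.600 to 0.899).

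The miR-92 seed family held the highest hairpin of the cluster and is shown by further mature sequences of that seed, in the same form as above (RefSeq, GRCm38.p6). Mir367, which also has this seed, had 4 reads in mESCs and 0 in prospermatogonia and is not shown.
miR-25-3p of Mir25: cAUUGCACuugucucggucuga
miR-92b-3p of Mir92b: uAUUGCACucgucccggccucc
miR-363-3p of Mir363: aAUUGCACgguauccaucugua
miR-32-5p of Mir32: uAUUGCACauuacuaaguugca
Over the length of miR-92a-3p, miR-25-3p differs from it by U1C, C14U and C18U and miR-92b-3p by U10C and G21C. Mir92-2 had 695 reads in mESCs and 1087 in prospermatogonia (log2 ratio -2.03), Mir25 1738 and 4250 (-1.38), and Mir92b 355 and 731 (-1.63). Mir363 had 657 and 142 reads (-4.86), and Mir32 had 7 and 3 reads (-3.02). In prospermatogonia Mir92-1 stood higher relative to each of these with more than 3 reads in both libraries, by 2.31-fold for Mir25 (2.17 to 2.46), 2.74-fold for Mir92b (2.41 to 3.12), 3.61-fold for Mir92-2 (3.27 to 3.99) and 26.1-fold for Mir363 (21.7 to 31.4). Because Mir92-1 and Mir92-2 hold the same mature sequence, the value for that pair also depends on how shared reads were counted.

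**Figure D4:**
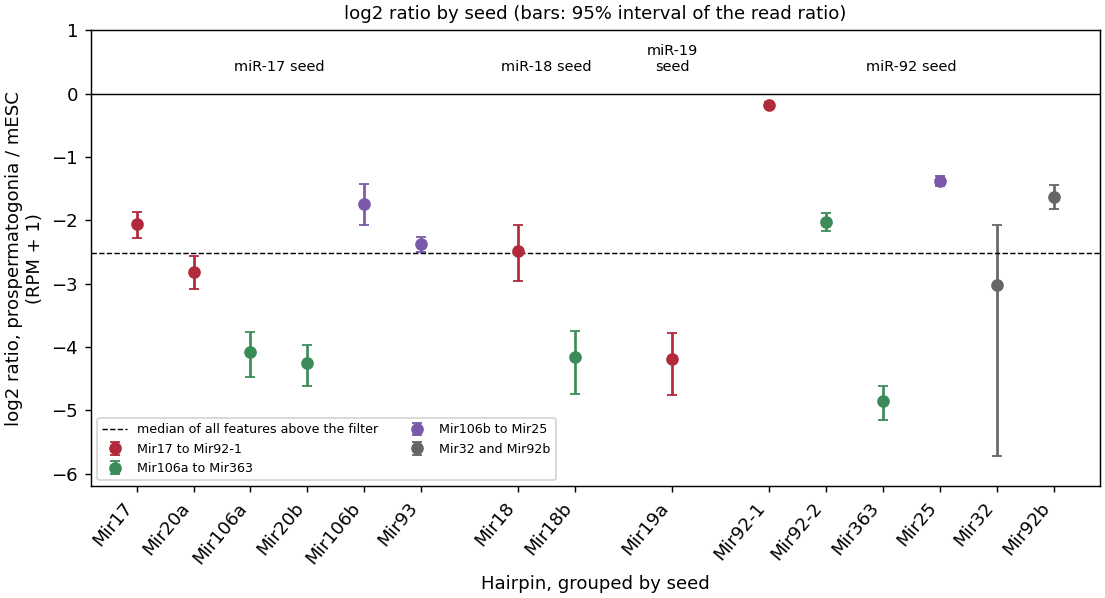
log2 ratio of prospermatogonia to mESCs with 1 RPM added, for the hairpins above the filter grouped by seed and coloured by cluster, with bars for the 95% interval of the read ratio and a dashed line at the median of 203 features, -2.52. Mir92-1 at -0.18 is the highest hairpin, and the hairpins of the Mir106a to Mir363 cluster other than Mir92-2 lie between -4.86 and -4.07.

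As Mir92-1 did in its cluster, its counterparts Mir92-2 and Mir25 held more of their own clusters in prospermatogonia, but Mir363, which has the same seed, held less (657 of 2029 reads in mESCs and 142 of 1460 in prospermatogonia). Mir92-2 held 34.3% of the Mir106a to Mir363 reads in mESCs and 74.5% in prospermatogonia, and Mir25 held 60.6% and 74.4% of the Mir106b to Mir25 reads. Relative to the other hairpins of its cluster, Mir92-2 differed by 5.59-fold (4.82 to 6.49) and Mir25 by 1.89-fold (1.72 to 2.08), beside 5.11-fold for Mir92-1. The log2 ratios ranged over 2.83 in the Mir106a to Mir363 cluster (5 hairpins above the filter) and 0.996 in the Mir106b to Mir25 cluster (3 hairpins). In the Mir17 to Mir92-1 cluster they ranged over 4.01 (5 hairpins). A range tends to grow with the number of hairpins. Of the reads of the 3 clusters together the Mir17 to Mir92-1 cluster held 55.1% (54.2% to 56.1%) in mESCs and 80.9% (80.5% to 81.3%) in prospermatogonia.

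Summed over the 3 clusters by seed, the miR-92 seed held 8334 reads in mESCs and 35066 in prospermatogonia, or 7.55% and 22.6% of miRNA reads. Without Mir92-1 it held 2.80% and 3.53%. The miR-17 seed held 2236 and 2354 reads (2.02% and 1.52%), the miR-18 seed 206 and 130 (0.187% and 0.0837%), and the miR-19 seed 138 and 62 (0.125% and 0.0399%). The shares of the miR-17, miR-18 and miR-19 seeds were lower in prospermatogonia and that of the miR-92 seed higher, each without overlap of the intervals. How often features in general differ in this way was not counted, but 90.6% of 203 differed at least 2-fold in level as deposited. Reads of the miR-92 seed per read of the other seeds differed by 4.26-fold (4.02 to 4.53). Mir92-1 is in the total of all these shares and in this ratio, and both depend on it. Without Mir92-1 the miR-92 seed had 3090 reads in mESCs and 5479 in prospermatogonia, beside 2580 and 2546 of the other seeds. The sums over a whole seed do not depend on how reads were divided between its copies. Reads counted at every copy would enter more than once, and reads left out because they match several hairpins would be missing. Mir19a had 133 of the 138 reads of the miR-19 seed in mESCs and 44 of the 62 in prospermatogonia, so that sum may lack reads of miR-19b.

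By distance of their log2 levels in the 2 libraries, the features outside these clusters nearest to each hairpin were taken from 155 features with more than 3 reads in both. Mir20a had an almost equal neighbour in Mir148b (240 and 217 reads, distance 0.0147), and Mir17 (Mir140, 0.278), Mir18 (Mir410, 0.332) and Mir19a (Mir96, 0.456) had neighbours within 0.456. Mir92-1 had none so near, since Mir22 (3911 and 7349 reads) lay at 2.05, Mir182 at 2.58 and Mir183 at 2.94. The nearest to Mir19b-1 was Mir1981 at 2.002, a distance that rests on 1 read of Mir19b-1 in mESCs. The likeness covers 2 libraries only.

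Base composition of the usual arm moved with the log2 ratios of the 5 members above the filter, a comparison that was chosen after their values were seen. The share of G and C in the mature sequence of the usual arm was 57.1% for Mir92-1, 47.8% for Mir17, 43.5% for Mir18, 39.1% for Mir20a and 34.8% for Mir19a, the same order as their log2 ratios. Mir19b-1, below the filter and with 1 read in mESCs, breaks this order, with 39.1% G and C and a log2 ratio of 1.17. The order was also lost over whole hairpins, where Mir20a has 45.8%, Mir17 45.2%, Mir19a 43.9% and Mir18 43.8% G and C. Over the 10 paralogous hairpins the order was looser (Spearman's rho 0.54), since Mir106a and Mir20b have 47.8% G and C, as Mir17 has, and lay at -4.07 and -4.25. Over 93 features that had a RefSeq sequence and at least 10 reads in each library, the log2 ratio was weakly related to the mean of their mature sequences (rho 0.25, Pearson's r 0.29), as it was to that of their hairpins (rho 0.22). Without the 3 clusters, Mir32 and Mir92b, 79 features gave a rho of 0.18 for mature sequences and 0.13 for hairpins. Over the 93 features the medians in the lowest, middle and highest part by G and C were -2.88, -2.48 and -2.05. The points share 2 libraries and their depth, and the part of base composition in the result was not tested.

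**Figure D5:**
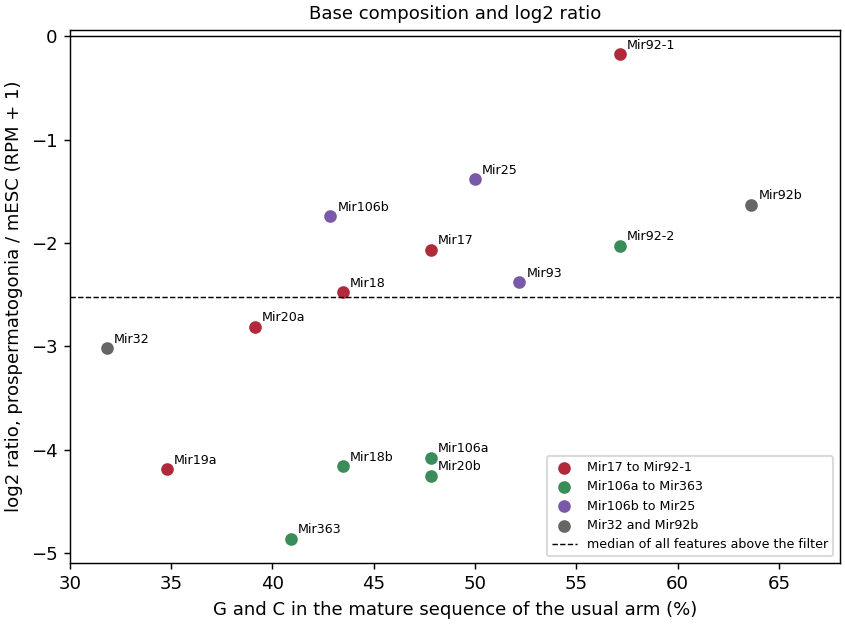
log2 ratio of prospermatogonia to mESCs with 1 RPM added against the percentage of G and C in the mature sequence of the usual arm, for hairpins of the 3 clusters, Mir32 and Mir92b above the filter. The 5 hairpins of the Mir17 to Mir92-1 cluster (red) lie in the same order on both axes, from Mir19a at 34.8% to Mir92-1 at 57.1%, whereas Mir106a and Mir20b lie lower than Mir17 at the same 47.8%.

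Mir19b-1 was low in both libraries beside its neighbours, and so was its copy Mir19b-2 with 4 reads in mESCs and 0 in prospermatogonia. Of 494 features with the position of a RefSeq hairpin, 68 have a mature sequence that also lies in another hairpin, and 9 of these (13.2%) had more than 3 reads in mESCs and 15 (22.1%) in prospermatogonia. Of the 426 without such a copy, 142 (33.3%) and 155 (36.4%) had more than 3 reads. Mir92-1 and Mir92-2 also share their mature sequence and were among the features with reads. Their shared stretch is 22 nt, and that of Mir19b-1 and Mir19b-2 is 25 nt. Of 55 copied hairpins that share 24 nt or more, 9.09% had more than 3 reads in mESCs and 20% in prospermatogonia. Of 13 that share 23 nt or less it was 30.8% in both libraries. These 13 include Mir92-1 and Mir92-2 themselves, and the others of them with more than 3 reads in a library had 4 reads there. The split was also added after values were seen, and no conclusion is drawn from it. The part of read assignment in the low values of Mir19b-1 was not tested, and its level is uncertain. Nor was the part of the shared length in the reads of Mir92-1 and Mir92-2 tested.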

How the data were processed

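Small RNA was measured in 2 libraries (TruSeq small RNA kit, selection by size on a gel, single-end Illumina sequencing). The authors trimmed the reads (Trim Galore 0.4.1 in the submitters' processing notes), mapped them with Bowtie through piPipes, and deposited a log2 value per feature and library. The methods name mm9 and the processing notes GRCm38. All 6 hairpins had exactly their GENCODE vM21 position on GRCm38. The unit and the counting of strands and of reads with several matches are not given in the sources used here. Turned into linear form, 100% of the deposited log2 values other than the lowest were multiples of 1 step per library within 0.02 reads. They were read as log2 RPM, and features entered as 0.9 reads were set to 0. Ratios between libraries rest on this reading, but shares do not.

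Shares carry Wilson intervals. Ratios of ratios carry intervals from the summed reciprocal reads on a log scale, and read ratios carry Wilson intervals of the split of reads times the ratio of totals. Log2 ratios had a pseudocount of 1 RPM, which understates the change of low features. No test was made, with 1 library per group.

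Members follow from position alone, but this rule and the lists were chosen with earlier results of these data known. Named were the 6 hairpins, the paralogous clusters, Mir32, Mir92b and the nearest features (3 for Mir92-1, 1 for the others). Other features carry no name here except markers. RefSeq sequences matched 6 of 6 hairpins by name. Alternatives were other scalings, pseudocounts of 0.1 and 5, other filters, a 4-fold threshold, reads per base, added copies and other totals. The comparisons of base composition and of copies were added after values were seen. Computations were tested on simulated reads. The work used matplotlib 3.10.9, scipy 1.17.1, pandas 2.3.3 and numpy 2.4.6 under Python 3.11.15. Read lengths, piRNA loci and PGC-like cells were not analysed here.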

Additional observations from a re-analysis of the deposited data

How the results depend on the processing

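No paired analysis was possible because each cell type had 1 library, and for the same reason no replicate could be left out. Scaling decided the direction of the ratios between libraries. Under median ratio scaling, scaling to the sum over the table, and scaling to that sum without the 10 highest features, in this order, the log2 ratio of Mir17 reversed to 0.30, 0.11 and 0.18, that of Mir92-1 to 2.19, 2.01 and 2.08, and that of the 6 summed hairpins from -0.34 to 2.04, 1.85 and 1.92. The 5 hairpins without Mir92-1 moved from -2.53 to -0.16, -0.35 and -0.28. Features at least 2-fold higher went from 20 to 45, 41 and 44, and those lower from 164 to 74, 81 and 78, so that the higher ones were 37.8%, 33.6% and 36.1% of calls in place of 10.9%. The median of all features moved to -0.28, -0.46 and -0.39, and relative to it Mir92-1 stayed 1.80 to 2.47 higher over the 3 scalings and both pseudocounts. With a pseudocount of 5 RPM Mir17 (-0.06), Mir18 (-0.36) and Mir20a (-0.77) lay below that median. With all features above the lowest value 40 were higher, and with 10 RPM in both libraries 5 were higher and 91 lower. Reads of Mir92-2 and Mir19b-2 added to their copies moved the 6 summed hairpins to -0.44 and the share of Mir92-1 in mESCs to 88.4%. Per base its share was 88.5% in mESCs and 97.5% in prospermatogonia. Of the reads of features with a miRNA name the cluster held 5.64% in mESCs and 19.9% in prospermatogonia, and without Mir92-1 in cluster and total 0.737% and 0.681%. With Mir32 and Mir92b the miR-92 seed held 7.87% and 23.1% of miRNA reads. Depth limits Mir19b-1 most, with 1 read in mESCs.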
